A study of Homo sapiens with 6 samples.

Results

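Long non-coding RNAs (lncRNAs) are transcripts without a long open reading frame. Many are made at low level from the strand opposite a coding gene or from the divergent start of its promoter, and some act on chromatin, on other RNAs or as precursors of microRNAs. hnRNP-F is an RNA-binding protein that recognizes runs of guanines and takes part in splicing and polyadenylation. Described here are the 88 autosomal lncRNA genes whose level differed at least 2-fold between cells overexpressing hnRNP-F and control cells, out of 1347 lncRNA genes that were eligible and 31831 genes in the count table. Of these 88, 64 were higher and 24 were lower with overexpression. They were selected by their own values: a gene was kept when it had a mean of at least 30 counts over the 6 libraries and when the mean CPM (counts scaled to a common library total) of HG-OE replicates 1 and 2 was at least 2 times, or at most 0.5 times, the mean of the 3 HG-NC libraries. Hosts of small nucleolar RNAs and a few well-known lncRNAs were left out by name. The difference between HG-OE and HG-NC is therefore a description of these 88 genes with no test. HG-OE replicate 3 did not enter the ratio, but it did enter the count minimum and is compared with the same HG-NC libraries.

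HK-2 is an immortalized line of human renal proximal tubule epithelium. The control cells (HG-NC) carried an empty vector, which the labels name a control plasmid and the study a control lentivirus. The HG-OE cells carried an hnRNP-F lentivirus, and both groups were kept in 30 mM glucose for 72 h, so that no normal-glucose sample enters. Each group had 3 libraries, which the study's results describe as biological replicates, while its methods describe parallel wells for each group. Whether the libraries came from separate transductions is not stated. The p-values therefore measure only the spread between these cultures of a single line. The labels and the study's methods describe poly(A) capture with a directional kit, though a clause of the labels worded as an example names a stranded total RNA kit. Poly(A) libraries measure lncRNAs with a poly(A) tail and do not measure mature microRNAs. Totals were 25507595 to 29444841 counts per library. lncRNA genes held 1.40% to 1.48% of the counts and the 88 genes held 0.0571% to 0.0653%. HNRNPF itself (chromosome 10, 43385617 to 43409186, GRCh38) was counted 7733, 8623 and 8692 times in HG-NC and 12492, 13155 and 12397 times in HG-OE, or 311 ± 8.02 and 434 ± 14.7 CPM (SD, n = 3). The groups did not overlap, and HNRNPF rose by 0.48 on the log2 scale (SE 0.0388, edgeR quasi-likelihood adjusted p = 2.8e-07 among 17142 genes). The study gives the same gene ID for its vectors in HK-2 cells and in mouse podocytes. The sources used here do not settle whether the HK-2 vector carried the human or the mouse coding sequence. Transcripts of a mouse sequence would be counted here only in part, so these counts may not measure all of the overexpression. A permutation test, exact and two-sided, gave p = 0.1, which is the minimum for 3 against 3 libraries. In bulk RNA, fewer cells that make a transcript and less of it per cell cannot be told apart.

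HG-OE replicate 3 stood apart. For pairs of replicates, the chi-square of the counts per degree of freedom was 2.19 to 3.67 among HG-NC libraries and 2.81 between HG-OE replicates 1 and 2, against 8.85 and 9.48 for the pairs with HG-OE replicate 3. In that library all 8 of 8 squamous epithelium markers in the table had their highest count, with a summed level of 32.2 CPM against 0.274 to 0.43 CPM in the other 5 libraries. The keratin genes KRT5 and KRT6A had 334 and 274 counts there and 0 in each of the others. Of 15 liver markers, 13 were highest there, and ALB had 4359 counts against 0 to 78 elsewhere. The 78 were in HG-NC replicate 3, and the remaining libraries had 0 to 4. Several other liver markers, though not all, also had more counts in HG-NC replicate 3 than in those remaining libraries. Of 3 liver markers tested, 2 were called higher with overexpression, where 3.69% of all genes were. For 1 of these 2, HG-OE replicates 1 and 2 lay near the HG-NC level, and the rise lay in replicate 3. HG-NC libraries had a liver sum of 268 to 277 CPM, nearly all of it SERPINA1, and the sum was 463 to 464 CPM in HG-OE replicates 1 and 2 and 789 CPM in replicate 3. The list of epithelial and proximal tubule markers summed to 1660 to 1760 CPM in HG-NC, 1900 to 1950 CPM in HG-OE replicates 1 and 2 and 2430 CPM in HG-OE replicate 3. Its abundant members went both ways. KRT8 had 7438 to 8332 counts in HG-NC and 18256 to 28781 with overexpression, and KRT18 and CDH2 were higher too, while PAX8 had 15331 to 18291 against 11953 to 13747 and KRT19 was lower. Of the defining proximal tubule genes, LRP2, the endocytic receptor megalin, was at 0 in all libraries but HG-OE replicate 3, which had 17 counts, and AQP1 had at most 7 counts. Fibroblast markers summed to 31.9 to 38.9 CPM in all libraries, and endothelial and leukocyte markers to at most 1.53 CPM. Within these sums PDGFRB, a receptor of fibroblasts and pericytes, was called higher with 8 to 16 counts in HG-NC and 59 to 65 with overexpression, and so was the endothelial VWF with 6 to 7 against 12 to 33. The part of these marker genes in the values below was not tested.

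A few sequences locate the genes that the results turn on, all from RefSeq on GRCh38.p14. Both microRNA host genes among the 88, MIR205HG and MIR4733HG, were lower in HG-OE replicates 1 and 2, and the mature microRNAs that lie within them are shown with the seed (bases 2 to 8, the part that pairs with targets) in capitals. The 4 seeds differ from each other.
miR-205-5p: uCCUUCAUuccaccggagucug
miR-205-3p: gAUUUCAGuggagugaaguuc
miR-4733-5p: aAUCCCAAugcuagacccggug
miR-4733-3p: cCACCAGGucuagcauugggau
The miR-205 arms lie at chr1:209432166-209432187 and chr1:209432203-209432223 on the plus strand. The 5p arm is in an intron of MIR205HG and 20 of the 21 bases of the 3p arm fall in an exon. The miR-4733 arms lie at chr17:31094395-31094416 and chr17:31094358-31094379 on the minus strand, both in an intron of MIR4733HG in GENCODE 44.

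Promoter windows of 300 bases, from 250 before to 50 after the start site, were found for 37 of the 88 genes (42.0%), too few for a comparison of the whole set. For 5 genes they are printed 5′ to 3′ on the gene's own strand, with matches to 5 short motifs in capitals. LINC02728, LINC01535 and CCND2-AS1 had the largest positive differences among genes with an entry, and MIR4733HG and EPCAM-DT are lower genes that start back to back with a coding gene.
LINC02728 (chr11:78429787-78430086, minus strand): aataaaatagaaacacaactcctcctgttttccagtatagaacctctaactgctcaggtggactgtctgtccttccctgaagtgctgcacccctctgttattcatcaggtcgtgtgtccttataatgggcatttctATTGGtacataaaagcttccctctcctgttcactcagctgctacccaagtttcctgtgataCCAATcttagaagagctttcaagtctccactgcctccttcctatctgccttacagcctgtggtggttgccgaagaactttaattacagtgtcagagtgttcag
LINC01535 (chr19:37251635-37251934, plus strand): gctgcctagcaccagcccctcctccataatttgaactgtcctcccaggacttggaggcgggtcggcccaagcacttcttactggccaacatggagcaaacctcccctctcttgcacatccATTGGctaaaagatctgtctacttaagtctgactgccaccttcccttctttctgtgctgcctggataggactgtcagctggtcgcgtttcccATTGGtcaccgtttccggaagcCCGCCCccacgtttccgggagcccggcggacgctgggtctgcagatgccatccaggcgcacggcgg
CCND2-AS1 (chr12:4276135-4276434, minus strand): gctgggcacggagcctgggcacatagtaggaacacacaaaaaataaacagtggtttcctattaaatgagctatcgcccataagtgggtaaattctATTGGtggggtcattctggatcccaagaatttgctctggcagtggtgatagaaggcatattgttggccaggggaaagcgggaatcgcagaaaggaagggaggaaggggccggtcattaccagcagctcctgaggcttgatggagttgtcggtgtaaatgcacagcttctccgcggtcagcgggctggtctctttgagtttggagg
MIR4733HG (chr17:31094765-31095064, minus strand): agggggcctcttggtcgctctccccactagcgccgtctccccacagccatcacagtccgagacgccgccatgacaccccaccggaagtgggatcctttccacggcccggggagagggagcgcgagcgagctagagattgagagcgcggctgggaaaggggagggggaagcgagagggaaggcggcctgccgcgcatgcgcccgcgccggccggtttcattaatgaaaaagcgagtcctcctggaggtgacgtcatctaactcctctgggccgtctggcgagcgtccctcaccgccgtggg
EPCAM-DT (chr2:47345025-47345324, minus strand): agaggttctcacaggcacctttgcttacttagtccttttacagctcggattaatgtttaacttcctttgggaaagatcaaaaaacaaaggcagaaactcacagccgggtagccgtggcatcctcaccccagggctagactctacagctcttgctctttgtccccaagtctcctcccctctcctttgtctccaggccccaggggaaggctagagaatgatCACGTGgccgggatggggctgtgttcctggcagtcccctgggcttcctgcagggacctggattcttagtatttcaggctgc
The motifs were searched on both strands: the TATA box TATAAA, the CCAAT box CCAAT, the GC box GGGCGG, the AP-1 site TGANTCA and the E-box CACGTG. Among all 35116 windows in the table, 11.5% held the TATA box, 34.6% the CCAAT box, 45.0% the GC box, 7.71% the AP-1 site and 7.26% the E-box. The CCAAT box occurred 2 times in the LINC02728 window, 2 times in that of LINC01535 and 1 time in that of CCND2-AS1, and LINC01535 also had 1 GC box. EPCAM-DT had 1 E-box, and none of the 5 motifs was in the MIR4733HG window. These matches are descriptions of letters and not of bound sites. The MIR4733HG window has 30 CpG dinucleotides and a GC content of 67.0%, against medians of 14 and 58.7% over all windows, and it shares 262 bases with the window of NF1 on the opposite strand. RefSeq places its start 636 bases from that of GENCODE 44. EPCAM-DT has 5 CpG dinucleotides and LINC02728 has 2.

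**Figure D1:**
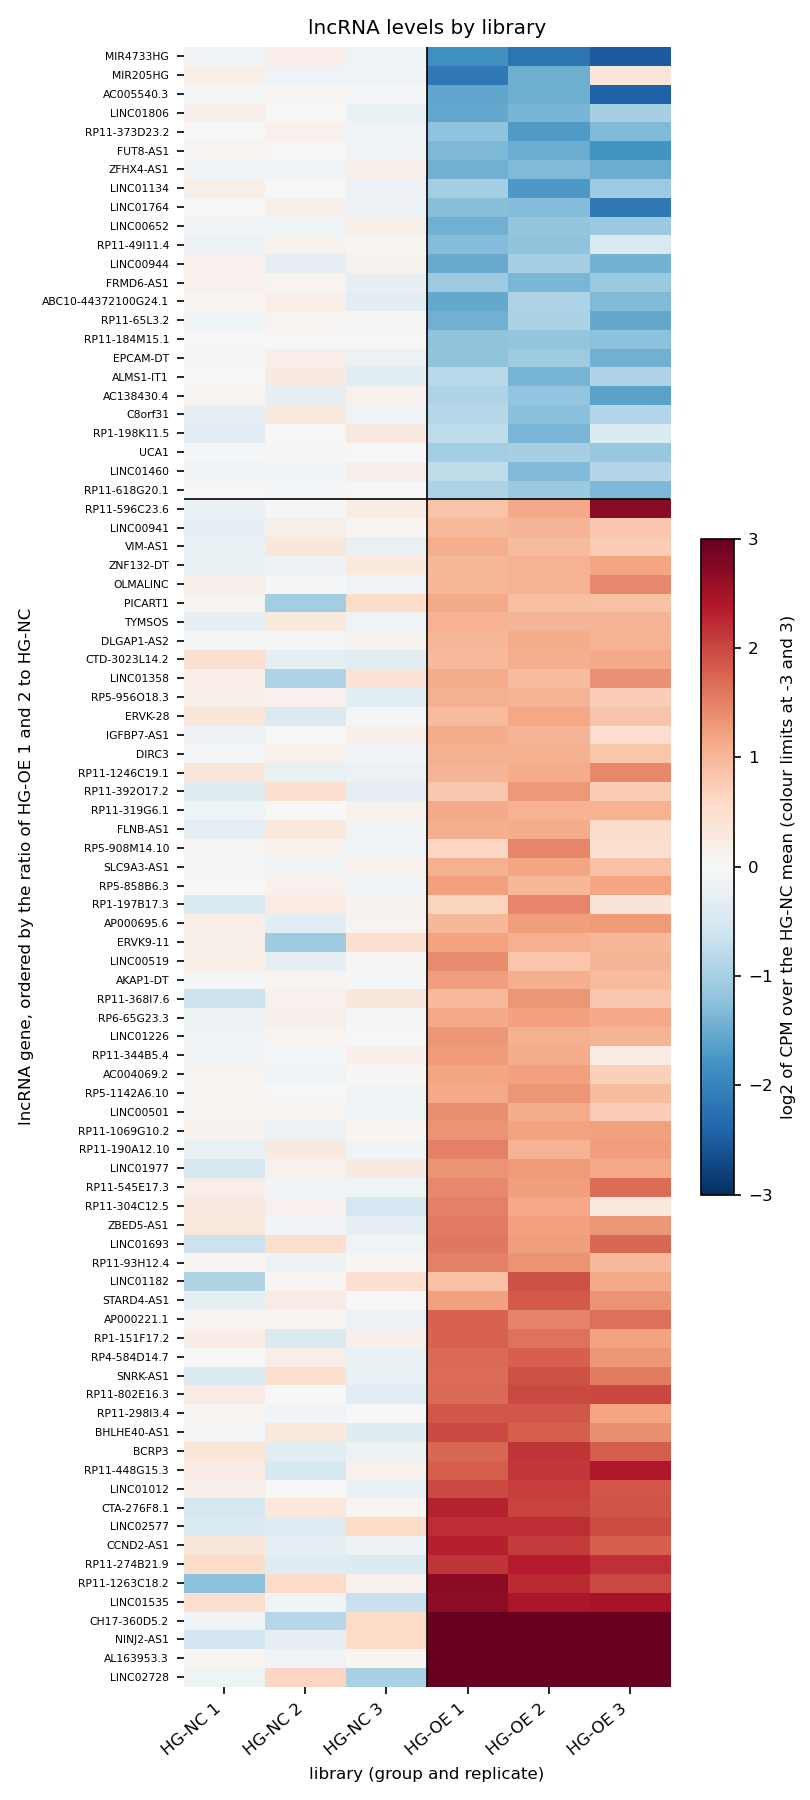
Level of 87 lncRNAs in each library as the log2 of its CPM over the HG-NC mean, with 0.5 counts added to both, ordered by the ratio used to choose them (KCNQ1OT1, at 0 in HG-NC, is not drawn). The upper 24 rows are blue and the lower 63 red in HG-OE replicates 1 and 2, and the MIR205HG row is the only one in which HG-OE replicate 3 lies on the other side of the HG-NC mean.

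Among the 24 lower lncRNAs, UCA1 was by far the most abundant. UCA1, first described in urothelial carcinoma, lies at 15828206 to 15836328 on the plus strand of chromosome 19. It had 9546, 10610 and 10862 counts in HG-NC and 5396, 5652 and 5199 in HG-OE. All 3 HG-OE libraries lay near 0.5 times the HG-NC level with no overlap, and the means were 385 ± 9.88 and 185 ± 8.4 CPM (SD, n = 3), a log2 difference of -1.05 (SE 0.0417). Per length its level went from 83.0 to 39.6 FPKM, the highest of the 88 genes. LINC01764 overlaps UCA1 on the opposite strand (15827005 to 15835853) and was lower too, with 44, 51 and 42 counts in HG-NC and 20, 20 and 11 with overexpression. Both kits named in the labels mark strand, but the use of strand in counting is not stated in the sources used here, so reads of such overlapping pairs cannot be told apart.

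RP11-618G20.1 was the next in abundance. This transcript runs along the plus strand of chromosome 14 from 61734138 to 61776260, in the sense direction over SNAPC1 and HIF1A. SNAPC1 is a subunit of the complex that activates small nuclear RNA genes, and HIF1A is the oxygen-regulated subunit of hypoxia-inducible factor. The counts of RP11-618G20.1 were 1336, 1362 and 1458 in HG-NC and 793, 699 and 598 with overexpression. The groups did not overlap, at 51.7 ± 1.1 and 23.9 ± 3.53 CPM. Both coding genes also fell: the log2 fold change of HIF1A was -0.81 (SE 0.044, adjusted p = 8.7e-09) and that of SNAPC1 was -0.67 (SE 0.0448, adjusted p = 5.92e-08). All 3 genes share a strand, so their reads cannot be told apart where they overlap.

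MIR4733HG had the largest negative difference of the 24 in the edgeR fit, with 58, 74 and 61 counts in HG-NC and 19, 15 and 12 in HG-OE, or 2.4 ± 0.297 and 0.525 ± 0.125 CPM (log2 difference -2.18, SE 0.256). NF1, the Ras-inactivating neurofibromin, starts 523 bases away in the opposite direction and fell, with a log2 fold change of -0.34 (SE 0.0494, adjusted p = 6.92e-05). The host gene of miR-205, a microRNA of stratified epithelia, split the HG-OE group. MIR205HG had 151, 132 and 140 counts in HG-NC, 34 and 56 in HG-OE replicates 1 and 2 and 201 in HG-OE replicate 3. Replicate 3 lay above every HG-NC library and held 69.1% of the HG-OE counts. The log2 fold change of MIR205HG was -0.67 (SE 0.427) with all libraries and -1.76 without that library, which is the one with the squamous markers. Their part in it was not tested.

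Among the other lower lncRNAs with a mean of at least 100 counts, AC005540.3 averaged 8.84 ± 0.392 CPM without and 2.62 ± 0.86 CPM with overexpression. Its 3 HG-OE counts of 87, 94 and 48 lay far below the lowest HG-NC count of 221. RP11-184M15.1, which overlaps no coding gene, had 235, 249 and 263 counts in HG-NC and 116, 120 and 116 in HG-OE. ZFHX4-AS1, antisense to the zinc finger homeobox gene ZFHX4, had 202, 211 and 260 against 89, 97 and 88. FUT8-AS1 is antisense to FUT8, the enzyme of core fucosylation, and had 163, 165 and 157 counts in HG-NC against 69, 63 and 51 in HG-OE. The groups did not overlap for any of these 4 genes, which the same contrast chose, nor for 59.0% of all genes tested. Log2 differences were -1.75 for AC005540.3, -1.20 for RP11-184M15.1, -1.41 for ZFHX4-AS1 and -1.53 for FUT8-AS1, with SE of 0.109 to 0.191. The less abundant ones with the largest differences after MIR4733HG were LINC01764 (-1.54), RP11-373D23.2 (-1.41), LINC01806 (-1.31), RP11-65L3.2 (-1.30), LINC00944 (-1.29), LINC01134 (-1.25), ABC10-44372100G24.1 (-1.24), LINC00652 (-1.24) and EPCAM-DT (-1.24), all on the log2 scale.

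**Figure D2:**
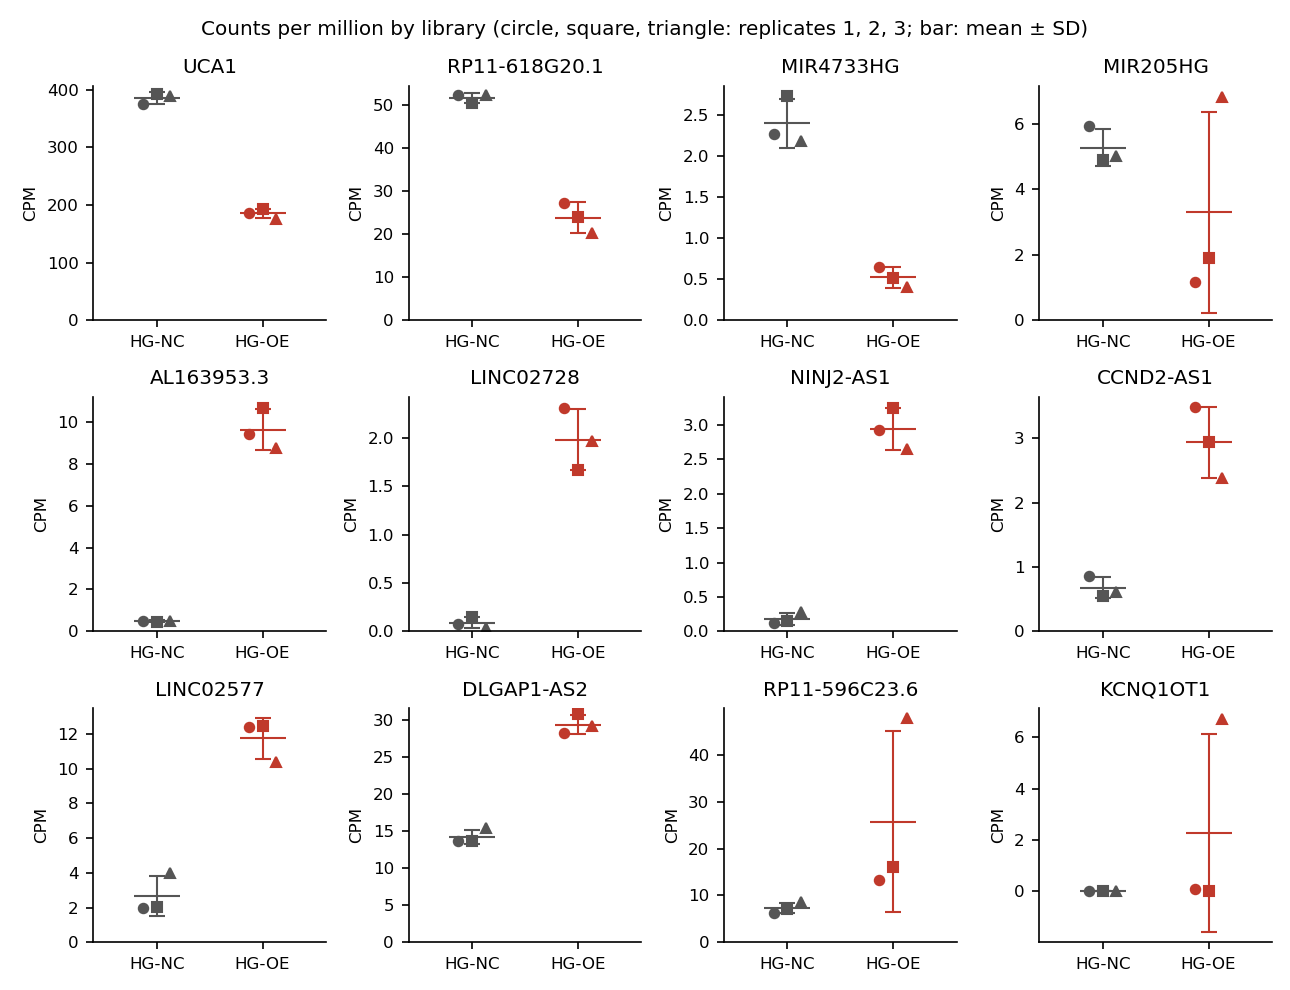
CPM of 12 lncRNAs in each library (vertical axes start at 0 except for KCNQ1OT1, where the SD bar runs below 0), with the mean and SD of each group. UCA1, RP11-618G20.1 and MIR4733HG lie lower in all 3 HG-OE libraries and 6 genes lie higher in all 3, while MIR205HG, RP11-596C23.6 and KCNQ1OT1 have HG-OE replicate 3 (triangle) far above replicates 1 and 2.

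The 3 lncRNAs with the largest positive differences had at most 14 counts in any HG-NC library. LINC02728 (chromosome 11, 78423982 to 78429836, minus strand) had 2, 4 and 1 counts in HG-NC and 67, 49 and 58 in HG-OE, a log2 difference of 4.45 (SE 0.397). AL163953.3 (chromosome 14, 53169010 to 53883740, plus strand) had 13, 12 and 14 counts against 273, 312 and 258, or 0.485 ± 0.0358 and 9.62 ± 0.969 CPM, a log2 difference of 4.30 (SE 0.17). NINJ2-AS1, antisense to the adhesion molecule gene NINJ2, had 3, 4 and 8 counts against 85, 95 and 78, a log2 difference of 3.96 (SE 0.306). In all 3 genes every HG-OE library lay more than 10 times above the HG-NC mean, HG-OE replicate 3 included, at ratios of 22.5, 18.1 and 14.4. Counts of 1 to 4 in a library carry a wide counting error, so the size of the folds of LINC02728 and NINJ2-AS1 is less certain than their direction. NINJ2 itself had 2, 4 and 5 counts in HG-NC and 16, 9 and 20 in HG-OE and did not pass the filter on low counts.

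A second tier was 4 to 7 times higher in HG-OE replicates 1 and 2. LINC01535 had 13, 9 and 6 counts in HG-NC and 68, 58 and 60 in HG-OE (ratio 6.14). RP11-1263C18.2 had 4, 16 and 12 against 77, 56 and 47 (ratio 5.82), and RP11-274B21.9 had 20, 11 and 11 against 70, 81 and 73 (ratio 4.91). CCND2-AS1 had 22, 15 and 17 against 101, 86 and 70 (ratio 4.76). LINC02577, the best counted of this tier, had 50, 55 and 112 counts in HG-NC and 359, 364 and 306 in HG-OE (ratio 4.65), with HG-NC replicate 3 about 2 times the other HG-NC libraries. CTA-276F8.1, within the gene of the actin-responsive coactivator MRTFB, LINC01012 and RP11-448G15.3 had ratios of 4.59, 4.18 and 4.03. For none of these 8 genes did the groups overlap, and that was so for 59.0% of all 17142 genes tested.

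Ratios were smaller, from 2.01 to 3.36, in 11 other higher lncRNAs with a mean of at least 100 counts. DLGAP1-AS2 had 349, 368 and 428 counts in HG-NC and 816, 897 and 858 in HG-OE, with a ratio of 2.07 in replicates 1 and 2 and 2.05 in replicate 3. SLC9A3-AS1, antisense to the gene of the sodium/proton exchanger NHE3, went from 9.81 ± 0.836 to 20.2 ± 2.09 CPM. LINC00941 went from 10.1 ± 1.48 to 19.4 ± 1.52 CPM, and VIM-AS1 from 9.36 ± 2.16 to 17.9 ± 2.11 CPM. RP6-65G23.3, which starts next to the kinase gene MAP3K9, had 176, 236 and 207 counts against 488, 532 and 495. LINC01226, on the strand of the matrix protein gene TINAGL1, had 131, 159 and 154 against 398, 340 and 330. RP11-319G6.1, RP11-1069G10.2, OLMALINC, RP4-584D14.7 and IGFBP7-AS1 had mean counts of 106 to 193 and log2 differences of 0.91 to 1.62. In each of these 11 genes all HG-OE libraries lay above all HG-NC libraries. Over all genes tested, the groups did not overlap for 59.0%, counting both directions.

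Several of the higher lncRNAs cannot be read as single transcripts with certainty. CH17-360D5.2 (chromosome 10, 47908064 to 47991877), which lies in a duplicated region, had 18, 11 and 32 counts in HG-NC and 206, 227 and 272 in HG-OE. BCRP3 is a copy of part of the BCR gene, with 20, 13 and 15 counts against 59, 80 and 64. ERVK-28 and ERVK9-11 belong to a family of endogenous retroviruses with many similar copies, with ratios of 2.10 and 2.23, and counting unique reads only could split or lose such copies. RP11-596C23.6 had 162, 190 and 239 counts in HG-NC and 384, 470 and 1409 in HG-OE, and its span holds on the same strand RN7SL2, a gene of the abundant 7SL RNA of the signal recognition particle. The part of 7SL reads in it was not tested. Its ratio was 2.00 in HG-OE replicates 1 and 2 and 6.54 in replicate 3. KCNQ1OT1, the imprinted antisense transcript of KCNQ1, had 0 counts in each HG-NC library and 3, 0 and 198 in HG-OE. It met the rule through the 3 counts of replicate 1, which are no more than a count of 0 allows in a library, and reached the count minimum through replicate 3, which held 98.5% of its HG-OE counts. In that library it was at least 60.0-fold higher than 3 counts in each HG-NC library. KCNQ1OT1 did not pass the low-count filter and has no fitted value.

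In the edgeR fit across all genes, 87 of the 88 genes were tested. Of the 63 higher ones, 53 were called higher (adjusted p under 0.05 and at least 2-fold), where 3.69% of all 17142 genes were. Of the 24 lower ones, 19 were called lower, against 2.13% of all genes. The same contrast chose the genes, so nothing is read from these counts. Groups did not overlap for 63 of the 64 higher and 23 of the 24 lower genes, and for 59.0% of all genes tested. The median log2 difference was 1.20 for the higher and -1.24 for the lower genes, against 0.011 over all genes and 0.074 over all lncRNA genes tested. Without HG-OE replicate 3, 63 higher and all 24 lower genes were called, where 626 of 17366 genes tested were called higher and 457 lower. That fit holds only the libraries that formed the ratio, so nothing is read from it either. Only 23 of the 88 had a mean of at least 100 counts, 33 of the higher and 13 of the lower genes had a mean under 50, and 45 were under 1 FPKM in both groups.

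HG-OE replicate 3 did not enter the ratio, but it is set here against the same HG-NC libraries that chose the genes, so its side of their mean is given as a description from which nothing is read. All 64 higher genes and 23 of the 24 lower genes lay on the same side there, and 44 and 18 of them were past 2-fold. KCNQ1OT1 is among the 64 and the 44, and its side was fixed by the count minimum, which it met through this library. MIR205HG lay on the other side. Replicate 3 lay below the mean of replicates 1 and 2 in 49 of the 64 higher genes (76.6%), with a median ratio of 0.876. For the 251 autosomal protein-coding genes past the same ratio upwards, that share was 59.8% with a median ratio of 0.959. Among the lower genes it lay below that mean in 13 of 24 (54.2%, median ratio 0.954), and among 239 protein-coding genes past the same ratio downwards in 39.7% (median 1.11). The difference between the lncRNA and the protein-coding genes was not tested. Replicates 1 and 2 chose the genes, and the effect of that choice cannot be told apart from a difference of replicate 3. RP11-344B5.4, RP11-304C12.5 and RP1-197B17.3 were the higher genes nearest to HG-NC in that library, at ratios of 1.17, 1.25 and 1.32.

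**Figure D3:**
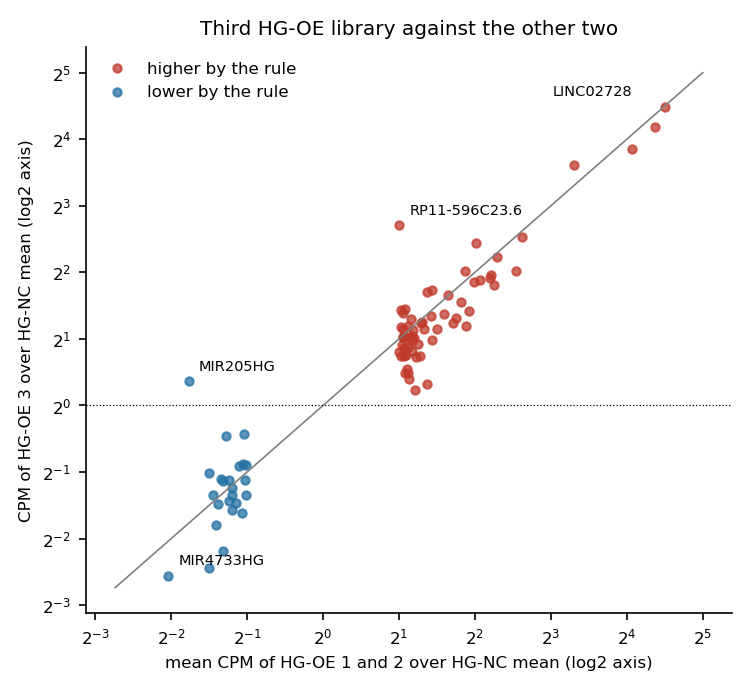
For each lncRNA, CPM of HG-OE replicate 3 over the HG-NC mean against the mean CPM of replicates 1 and 2 over the same mean, on log2 axes, with the line of equality (KCNQ1OT1 is not drawn). All points but MIR205HG lie on the same side of 1 on both axes. MIR205HG lies above 1 at a ratio of 1.29, and RP11-596C23.6 lies at 6.54 against 2.00.

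By position, 16 of the 64 higher genes start within 2 kb of a coding gene on the opposite strand (head-to-head), whether or not they also overlap it. Of the others, 18 overlap a coding gene on the opposite strand, 5 of the rest overlap one on the same strand, and 24 do neither. The numbers among the 24 lower genes were 5, 4, 5 and 9, and 1 gene of each direction had no position in GENCODE 44. The values of these coding partners were not used by the choice and could be tested. Each partner lies near its lncRNA, however, and whole regions were shifted. Well-counted genes within 10 Mb of a lower lncRNA had a median log2 fold change below 0 for 18 of 23 lncRNAs. Around the higher lncRNAs it was 29 of 62. The part of such regional shifts in the counts of partners was not tested. Of 44 partners tested for the higher genes, 24 rose at an adjusted p under 0.05, 3 fell and 17 did not pass, where 25.9% of all genes rose and 25.9% fell at that threshold. Their median log2 fold change was 0.30. Of 15 partners tested for the lower genes, 11 fell, 1 rose and 3 did not pass, with a median of -0.31. With the 2-fold threshold, 7 of the 44 partners of higher genes were called, all of them higher, and none of the 15 of lower genes, where 3.69% of all genes were called higher and 2.13% lower. Without HG-OE replicate 3, 25 partners of higher genes rose and 4 fell, and 12 partners of lower genes fell and 1 rose. Overlapping partners, which include head-to-head ones such as VIM, IGFBP7, BHLHE40 and NF1, share reads with their lncRNA where strand was not used, and lncRNA and partner were counted in the same libraries.

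CCND2, the gene of cyclin D2, which drives entry into the cell cycle, had the lowest adjusted p of the partners. It had 527, 582 and 540 counts in HG-NC and 2885, 2891 and 2842 in HG-OE, with no overlap and a log2 fold change of 2.27 (SE 0.0523, adjusted p = 4.9e-12). CCND2-AS1, which overlaps it on the other strand, differed by 2.12 on the log2 scale. RP11-388F6.5, a coding gene that CCND2-AS1 also overlaps, fell by 0.22 (adjusted p = 0.00491). TMEM271, head-to-head with RP11-1263C18.2 at 157 bases, had 1, 2 and 5 counts against 21, 15 and 21 (log2 fold change 2.66, SE 0.508, adjusted p = 0.000595). The other called partners were GRID1, a glutamate receptor subunit (1.58), TCIRG1, a subunit of the proton-pumping V-ATPase (1.31), IER5L (1.25), NREP (1.20) and TINAGL1 (1.20). Under the 2-fold threshold, the intermediate filament gene VIM rose with VIM-AS1, with 20484, 21986 and 22547 counts in HG-NC and 41372, 43977 and 45824 in HG-OE (log2 fold change 0.89, SE 0.0379, adjusted p = 9.56e-10). IGFBP7, the secreted insulin-like growth factor binding protein, rose by 0.83 (adjusted p = 3.91e-09), beside a difference of 0.91 for IGFBP7-AS1. BHLHE40, a transcriptional repressor of the circadian system, rose by 0.76 (adjusted p = 2.04e-08), while BHLHE40-AS1 differed by 1.77.

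In some other pairs of higher lncRNAs the coding gene did not differ detectably or fell. AJUBA, a LIM-domain protein of cell junctions, had 10280, 11007 and 11378 counts in HG-NC and 12188, 11645 and 10789 in HG-OE (log2 fold change -0.04, adjusted p = 0.537), beside a difference of 1.69 for RP11-298I3.4, which starts 147 bases away. ITGA3, the integrin alpha 3 gene next to PICART1, had a log2 fold change of 0.01 (SE 0.0512). COPB2, a coat protein of Golgi vesicles, fell by 0.10 (adjusted p = 0.0351) 25 bases from RP11-319G6.1, and RPAP3 fell by 0.18 (adjusted p = 0.0146) 28 bases from RP1-197B17.3. Around RP11-319G6.1 and RP1-197B17.3, well-counted genes within 10 Mb had median log2 fold changes of -0.17 and 0.06, so COPB2 fell less than the median around it. Most partners of lower lncRNAs fell too. Those that lie head-to-head included EPCAM, which fell by 0.56, NF1 by 0.34, C1orf174 by 0.29 and XRN2, the nuclear exoribonuclease of transcription termination, by 0.27 on the log2 scale. Well-counted genes within 10 Mb of their lncRNAs had median log2 fold changes of -0.32, -0.25, -0.15 and -0.40, in that order. XRN2 thus fell less than the median around it. The part of these regional shifts in the falls was not tested. EPCAM, an epithelial adhesion molecule, had 2825, 2739 and 2952 counts in HG-NC and 2023, 1950 and 2321 in HG-OE (adjusted p = 3.92e-06). FRMD6, after which the lower gene FRMD6-AS1 is named, fell by 0.85 (adjusted p = 1.42e-08). MOCOS, on the strand of RP11-49I11.4, rose by 0.41 (adjusted p = 4.57e-05) while the lncRNA was lower. TTN, the giant muscle gene that RP11-65L3.2 overlaps, had 239 counts in HG-OE replicate 3 and 7 to 22 in every other library (log2 fold change of TTN 2.19, adjusted p = 0.0692, and -1.19 without that library).

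**Figure D4:**
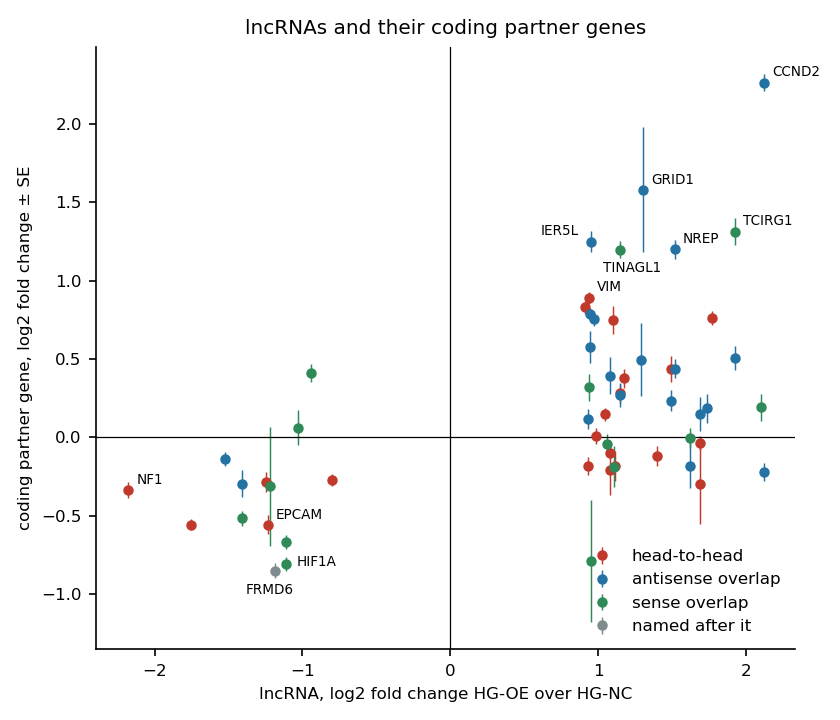
Log2 fold change of each tested coding partner (vertical, with SE) against the log2 difference of its lncRNA (horizontal), coloured by how the genes of a pair lie. The plot holds 56 pairs and leaves out TTN and TMEM271, 2 partners with an SE of 0.5 or more, and KCNQ1, whose lncRNA has no fitted value. Partners of lower lncRNAs mostly lie below 0, and those of higher lncRNAs spread from -0.79 to 2.27.

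The nearest coding genes were counted in the same way. Many of them are the partners already counted above, so these counts are not separate support. Of 53 tested for the higher lncRNAs, 24 rose and 7 fell at an adjusted p under 0.05 (median log2 fold change 0.20). Of 16 for the lower ones, 12 fell and 2 rose (median -0.29). Among all genes 25.9% rose and 25.9% fell at that threshold. LINC02728 lies 5634 bases from GAB2, an adaptor of growth factor receptors, which fell by 0.62 (adjusted p = 2.17e-05), beside the largest positive difference of the 88. OLMALINC lies 8273 bases from SCD, the stearoyl-CoA desaturase gene, which rose by 0.40 (adjusted p = 4.29e-05).

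By chromosome, the lower genes were most frequent on chromosome 2. Chromosome 2 held 7 of the 24 lower genes, or 7.87% of its 89 eligible lncRNA genes, and 1 higher gene (1.12%), against 1.78% lower and 4.75% higher over all eligible genes. These 7 were AC005540.3, LINC01806, RP11-373D23.2, RP11-65L3.2, EPCAM-DT, ALMS1-IT1 and LINC01460. The 1140 genes tested on chromosome 2 had a median log2 fold change of -0.25, the lowest of the autosomes, and chromosome 22 had the highest at 0.31. Chromosome 4 had a median of -0.22 and still held 5 higher genes, or 11.4% of its 44 eligible genes. The well-counted genes within 10 Mb of a lower lncRNA had a median below 0 for 18 of 23 lncRNAs, with a median of -0.15, and around the higher lncRNAs for 29 of 62, with a median of 0.02. After that local median was taken from each value, 53 of the higher and 13 of the lower lncRNAs were past 2-fold, with medians of 1.27 and -1.05. What moves whole chromosome regions was not tested.

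**Figure D5:**
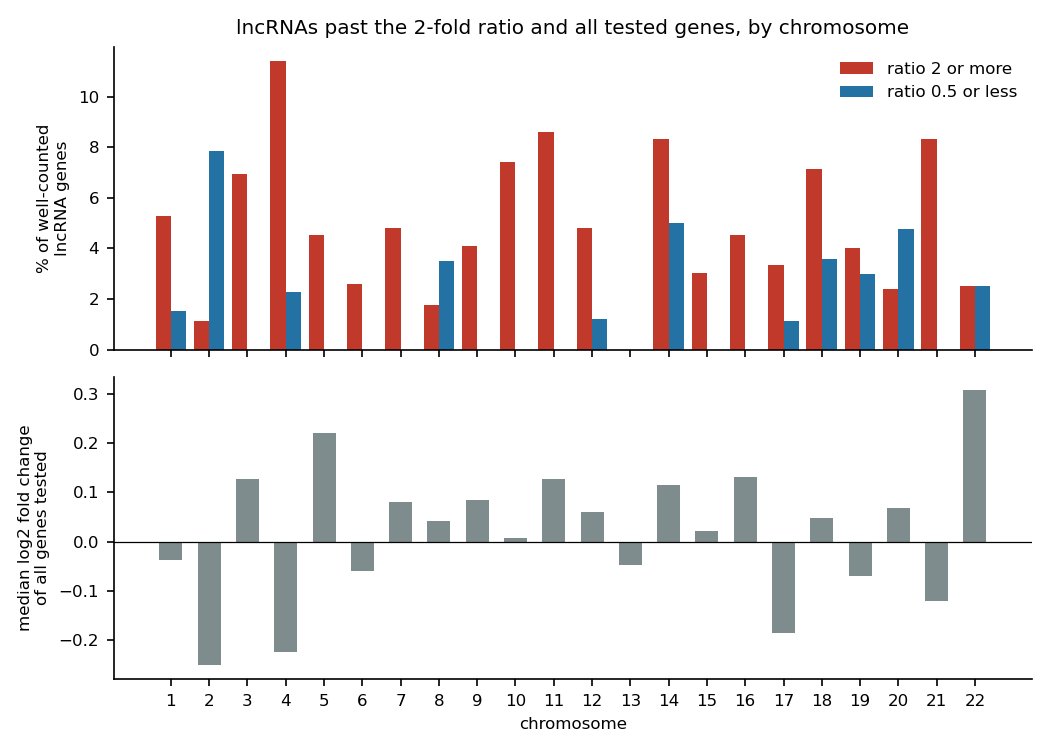
Top, percent of eligible lncRNA genes on each autosome with a ratio of at least 2 (red) or at most 0.5 (blue). Bottom, median of the log2 fold changes of the tested genes on it. Chromosome 2 has the largest blue bar (7.87%) and the lowest median (-0.25), and chromosome 13 has neither kind.

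The ratio was met more often by genes with few counts. Among eligible lncRNA genes with a mean of 30 to 100 counts 6.16% were higher and 2.18% lower, while from 300 counts upwards it was 2.91% and 0.971%. Autosomal protein-coding genes met it in 7.63% and 8.74% at 30 to 100 counts and in 0.854% and 0.725% from 300 counts. Under this ratio, higher and lower protein-coding genes were thus about equal in number, while higher lncRNAs outnumbered lower ones. The calls of the edgeR fit on all 6 libraries leaned upwards in both types. Of 13692 protein-coding genes tested, 3.18% were called higher and 1.94% lower, and of 2671 lncRNA genes 5.58% and 2.77%. Features that the rule did not use are given as medians. Spliced length had a median of 1360 bases in both the higher and the lower genes and 1640 in the others, and runs of 3 guanines, the sequence hnRNP-F is known to bind, had medians of 13.1, 14.9 and 13.3 per kb with quartiles that overlapped (10.5 to 17.8, 8.11 to 19.1 and 9.61 to 18.2). Gene spans had medians of 13.7, 4.66 and 9.45 kb. By their symbols in the count table, 31 of the higher genes carry clone names and 12 are LINC genes. Another 12 are named as antisense or opposite-strand genes and 2 as divergent transcripts. Several of the clone-named genes have such names in GENCODE 44, such as COPB2-DT for RP11-319G6.1 and IER5L-AS1 for RP11-344B5.4.

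Known lncRNAs were counted from lists. Of 29 well-studied lncRNAs, 26 were in the table and 19 were tested, of which 4 rose, 7 fell (UCA1 among them) and 8 did not pass an adjusted p of 0.05, where 25.9% of all genes rose and 25.9% fell. Counts this small are not read as differing from that background. LINC00963 rose by 0.83 (adjusted p = 5.15e-09), TUG1 by 0.44 and NORAD, which sequesters Pumilio proteins, by 0.43. MALAT1, a nuclear speckle RNA, rose by 0.62 (SE 0.155, adjusted p = 0.00429), with 3108, 2974 and 3632 counts in HG-NC and 3591, 6662 and 5957 in HG-OE, so that HG-OE replicate 1 lay within the HG-NC range. LINC-PINT fell by 0.89 and NEAT1, the scaffold of paraspeckles, by 0.20. Of 9 tested lncRNAs linked to inflammation, 2 rose (IRF1-AS1 by 0.59 and NKILA, an inhibitor of NF-kB, by 0.55) and 4 fell (IL6-AS1 by 0.61, LUCAT1 by 0.57, MIR155HG by 0.51 and NEAT1), each by less than 2-fold. Of 31 tested microRNA host genes, 4 rose and 5 fell, shares below the 25.9% of all genes in each direction, and the 2 called at 2-fold, both lower where 2.13% of all genes were, were MIR4733HG and MIR4280HG (16, 26 and 27 counts in HG-NC, 8, 3 and 5 with overexpression). The lists were written with earlier results of these data known.

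At the edges of the rule, RP11-596C23.6 and LINC00941 were just inside at ratios of 2.004 and 2.009, and LINC02298 and LINC01089 just outside at 1.989 and 1.986. RP11-618G20.1 and LINC01460 were just inside the lower bound at 0.496 and 0.493, and MAP3K4-AS1 and SOCS3-DT just outside at 0.501 and 0.502. Of these, MAP3K4-AS1 was abundant, with 1930, 1841 and 2034 counts in HG-NC and 1039, 1070 and 976 in HG-OE. LINC01358 lay at the count minimum with a mean of 30 and LINC02728 just above it at 30.2, and LINC02416 (29.8) and CTD-2382E5.6 (29.5) just below it.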

How the data were processed

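RNA-seq counts of HK-2 cells in high glucose were compared between HG-NC and HG-OE, with 3 libraries each, grouped by their labels. The authors trimmed the reads with FASTX-Toolkit, aligned them with HISAT2 to GRCh38 (aligner and build are also in the submitters' processing notes) and counted uniquely mapped reads per gene. The deposited counts are whole numbers with no stated normalization, and the deposited FPKM values were computed by the authors from those reads, per transcript length and library size. ComBat_seq is named in the methods. Whether it entered these tables is not given in the sources used here, nor is the counter's use of strand.

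The 88 genes and all gene lists were chosen with earlier results of these data known. Names left out by the rule were those starting with SNHG and GAS5, ZFAS1, EPB41L4A-AS1, DANCR, CYTOR, MEG3, RMRP and RPPH1. The genes named in the text follow a rule: HNRNPF, members with a mean of at least 100 counts, the 10 largest differences in each direction among the rest, members decided by HG-OE replicate 3, genes at the thresholds, partners of these and called genes of the lists. Other genes named were chosen after their values were seen. A partner gene and a marker gene are counted but not reported here by name. Counts were tested with edgeR 4.0.16 in R 4.3.3 (TMM, default low-count filter, quasi-likelihood test, Benjamini-Hochberg adjustment over 17142 genes), and a gene was called when it changed 2-fold or more and its adjusted p was below 0.05. The SE of an edgeR log2 fold change was computed as its absolute value over the square root of the quasi-likelihood F statistic. The biological coefficient of variation was 0.0683. Positions and partners come from GENCODE 44, which held 31742 of the 31831 gene IDs. FRMD6-AS1 and RP11-448G15.3 had no position there. Neighbours were genes with a mean of at least 100 counts within 10 Mb. Where a library had 0 counts, up to 3 were allowed for, a floor of 0.102 to 0.118 CPM that covers counting error only. Replicate numbers showed no pairing in these counts: deviations of same-numbered libraries correlated at -0.0273, 0.0301 and -0.000993 across genes. Whether ComBat_seq removed such a correlation is not known, so these values do not settle whether the cultures were paired. The tests were checked on simulated data. Alternatives, with DESeq2 1.42.0 and limma 3.58.1 among them, are given in the closing section.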

Additional observations from a re-analysis of the deposited data

How the results depend on the processing

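With size factors of DESeq2, its Wald test or the replicate number as a block, all 68 named genes with a fitted value kept their direction and side of the threshold. The replicate block gave 990 genes and 74 members called, against 997 and 72. The numbers share no labelled batch and showed no pairing in these counts. Leaving out 1 library at a time gave 989 to 1124 genes and 67 to 87 members called. The 87 came without HG-OE replicate 3, beside 1083 genes, in a fit with only the libraries that formed the ratio.

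Calls over all genes were 1539 (1103 higher) with no low-count filter, 617 (370 higher) with at least 10 counts in every library, and 8887 (4446 higher, 4441 lower) with no fold threshold. On log2(FPKM + 1) limma called 144 genes (76 higher, 68 lower), 13 members and 4 partners, with medians of 0.52 for the higher and -0.46 for the lower members, since adding 1 shrinks the folds of low genes. On log2(FPKM + 0.1) it called 724 genes and 50 members. Among well-studied lncRNAs, 2 were called with no filter and 0 with the neighbour median removed, against 1. Among microRNA hosts, 1 was called instead of 2 with at least 10 counts in every library and with limma at either pseudocount.

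A count minimum of 10 in the rule gave 241 members (162 higher, 79 lower) and one of 100 gave 23 (16 and 7). HG-OE replicate 3 alone in the ratio gave 117, 48 of them lower, of which 62 were among the 88. All 3 HG-OE libraries gave 87, of which 73 were.

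The log2 fold change of LRRC61 was 0.00 with at least 10 counts in every library and -0.05 to 0.08 with 1 library left out, and that of COPB2 was 0.07 with the neighbour median removed. The log2 fold change of TTN was -1.19 to 2.74 with 1 library left out, the negative value without HG-OE replicate 3. KCNQ1OT1 has no fitted value. With 3 libraries a group, the 33 higher and 13 lower members under 50 counts on average have folds of low precision.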
